A study of Homo sapiens with 6 samples.

Results

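Condensins and type II topoisomerases are the proteins that fold replicated DNA into compact mitotic chromosomes and separate entangled DNA strands, and the RNA of their 10 genes was followed here in U87 cells, a human glioblastoma line, with and without knockdown of PRMT6. The genes were chosen by name, with earlier results of these data known. They were 3 subunits found only in condensin I (NCAPD2, NCAPG and NCAPH) and 3 found only in condensin II (NCAPD3, NCAPG2 and NCAPH2). The others were the 2 subunits shared by both complexes (SMC2 and SMC4) and the 2 topoisomerase II enzymes (TOP2A and TOP2B). All 10 were among the 60612 genes of the deposited table, and all 10 were among the 18106 genes left by the filter on low counts. The control group (NC) was U87 cells that received lentivirus with a scramble shRNA, and the knockdown group (shPRMT6) was U87 cells that received lentivirus with an shRNA against PRMT6, an arginine methyltransferase. Each group had 3 libraries, described by the study as independent replicates. The methods describe puromycin selection of the infected cells into stable cultures, and the shRNA that was sequenced is not named.

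A condensin holds a pair of SMC ATPases, SMC2 and SMC4, closed into a ring by a kleisin subunit and bound by HEAT-repeat subunits that contact DNA. Condensin II is nuclear through the cell cycle and starts to shorten chromosomes in prophase, and condensin I reaches them once the nuclear envelope has broken down. Topoisomerase II passes one DNA duplex through a break in another, and its α form, TOP2A, is made mostly in dividing cells, while its β form, TOP2B, is also made in cells that no longer divide.

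The promoters of the 3 genes with the largest falls are shown first, as searched for sites known from genes of the late cell cycle. They are the 250 bases before the RefSeq start site on GRCh38.p14, 5′ to 3′ on the strand of the gene, with CCAAT boxes and CHR elements of either strand in capitals. The NCAPD2 sequence is chr12:6493852-6494101 on the plus strand, that of TOP2A is chr17:40417897-40418146 on the minus strand, and that of NCAPH is chr2:96335516-96335765 on the plus strand.
NCAPD2: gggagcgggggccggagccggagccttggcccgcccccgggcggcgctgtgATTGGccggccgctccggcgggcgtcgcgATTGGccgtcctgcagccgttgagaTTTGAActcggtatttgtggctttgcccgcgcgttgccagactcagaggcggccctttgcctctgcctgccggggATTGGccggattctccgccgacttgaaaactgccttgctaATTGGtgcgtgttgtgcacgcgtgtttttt
TOP2A: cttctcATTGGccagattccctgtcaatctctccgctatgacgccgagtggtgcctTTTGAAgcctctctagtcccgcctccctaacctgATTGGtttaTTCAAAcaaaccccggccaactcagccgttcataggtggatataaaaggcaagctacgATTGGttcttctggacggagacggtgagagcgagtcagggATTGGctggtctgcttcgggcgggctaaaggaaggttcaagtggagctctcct
NCAPH: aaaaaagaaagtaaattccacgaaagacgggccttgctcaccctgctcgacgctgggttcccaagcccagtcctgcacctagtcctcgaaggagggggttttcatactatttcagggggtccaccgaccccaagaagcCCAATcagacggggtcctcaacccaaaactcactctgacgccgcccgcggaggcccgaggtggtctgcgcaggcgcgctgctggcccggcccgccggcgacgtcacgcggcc

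CCAAT boxes (CCAAT on either strand) are bound by NF-Y, and CHR elements (TTTGAA on either strand, or the palindrome TTCGAA) are bound by the DREAM and MuvB complexes in many cell cycle genes. NCAPD2 held 4 CCAAT boxes and 1 CHR element. TOP2A held 4 CCAAT boxes and 2 CHR elements, and NCAPH held 1 CCAAT box and no CHR element. The full RefSeq window, which adds 50 bases after the start site, was found for 9 of the 10 genes (NCAPH2 had no entry) and searched on both strands. A CHR element was found for 8 of these 9 genes, against 19.5% of 27305 genes, and a CCAAT box for 5 of 9, against 39.7%. The 27305 are all genes with such a window, expressed here or not. The CHR elements lay at positions from -227 (TOP2B) to 36 (NCAPG2) relative to the start site. The GC box (GGGCGG), bound by SP1, was found for 7 of 9 genes, against 48.3%, and the E2F site (spelled TTTCCCGC, also TTTGGCGC, also TTTCGCGC, and also TTTGCCGC) for 1 of 9, NCAPD3, against 3.99%. Genes with several start sites counted once if any window held the motif. By single windows a CHR element was in 8 of 13, against 16.4% of 35116, and a CCAAT box in 5 of 13, against 34.6%. A match of letters does not show that a factor binds there. CHR elements were present both in genes that fell strongly, such as TOP2A, and in SMC2, which did not pass the test below.

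PRMT6, the targeted gene, was at 9.34, 7.97 and 7.19 CPM (counts scaled to library size, with TMM factors from edgeR) in NC replicates 1, 2 and 3, and at 3.57, 4.58 and 5.24 CPM in shPRMT6 replicates 1, 2 and 3. Its log2 fold change was -0.87 (SE 0.187, adjusted p = 0.0225, edgeR), with no overlap between groups, and it passed in 11 of 16 other fits. The call was lost without NC replicate 1, shPRMT6 replicate 1 or shPRMT6 replicate 2, and by limma on log2(FPKM + 1) over all genes (adjusted p = 0.0578). The libraries held 56388161 to 75887696 counts. Among markers of the line, VIM and CD44 were high (7090 to 8427 and 454.8 to 651 CPM), GFAP and SOX2 were under 1 CPM in all 6 libraries, and S100B had no counts. The 10 markers of other cell types summed to 5.69 to 8.01 CPM in NC and 7.56 to 9.18 CPM in shPRMT6, with KRT5 and MOG at 0 counts.

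RNA of condensins and topoisomerase II was lower after PRMT6 knockdown. Of the 10 genes, 7 fell past an adjusted p of 0.05 (edgeR) and none rose, where 9.06% of all genes tested fell and 18.6% passed in either direction. Among the 5731 genes whose log2 CPM averaged 5 or more, the range in which all 10 genes lie, 15.2% fell. The median log2 fold change was -0.58 over the 10 genes and -0.01 over all genes tested. In 9 of the 10 genes every shPRMT6 library lay below every NC library, as in 19.9% of all genes tested. A two-sided exact permutation test of a single gene gives p = 0.1 for such a separation, the smallest p that 3 libraries against 3 allow. By the threshold of the study's methods, a log2 fold change beyond 1 with an unadjusted p under 0.05, none of the 10 was called lower, against 2.63% of all genes, and NCAPD2 came nearest to it. The 10 genes together took 0.143%, 0.171% and 0.149% of the counts of NC libraries 1 to 3 and 0.0968%, 0.0995% and 0.101% of those of shPRMT6 libraries 1 to 3. In RNA of whole cultures, a smaller share of dividing cells and less RNA in each cell cannot be told apart.

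**Figure D1:**
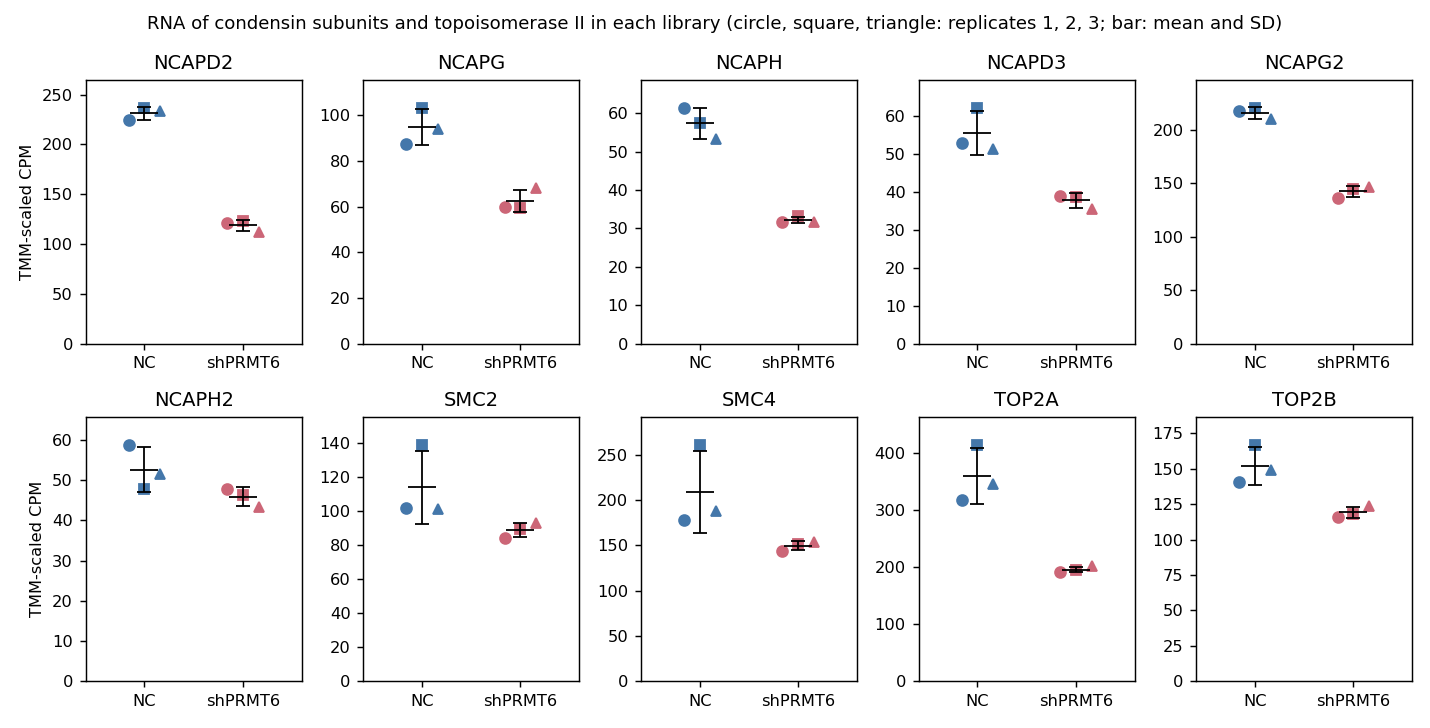
TMM-scaled CPM of each gene (vertical axes, each from 0) in the 3 NC and 3 shPRMT6 libraries (points), with mean and SD (n = 3). In every panel but that of NCAPH2 the shPRMT6 points lie below all NC points, and NC replicate 2 (square) is the highest library in 8 of the 10 panels, all but those of NCAPH and NCAPH2.

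All 3 subunits of condensin I alone fell (median log2 fold change -0.84). NCAPD2 (ENSG00000010292, chromosome 12, 6493356 to 6531955), the HEAT-repeat subunit that binds histone H3 and helps to load the complex, measured 224.1, 236.5 and 233.3 CPM in NC libraries 1 to 3 and 121.1, 123 and 112.1 CPM in shPRMT6 libraries 1 to 3. The NC libraries lay close together, and all shPRMT6 libraries were far below them. NCAPD2 fell by 48.7%, from 231.3 ± 6.40 to 118.7 ± 5.78 CPM (SD, n = 3), a log2 fold change of -0.96 (SE 0.0602, adjusted p = 0.000508, edgeR), and ranked 26 by p among all genes with lower RNA.

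NCAPH (ENSG00000121152, chromosome 2, 96335787 to 96373845) is the kleisin that closes the condensin I ring. Its RNA was at 61.4, 57.5 and 53.4 CPM in NC libraries 1 to 3 and 31.8, 33.1 and 31.6 CPM in shPRMT6 libraries 1 to 3. The shPRMT6 libraries differed by a factor of 1.05 at most, less than the NC libraries (1.15), and the groups were well apart. It fell by 0.84 on the log2 scale (SE 0.0776, adjusted p = 0.00153, edgeR).

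NCAPG (ENSG00000109805, chromosome 4, 17810902 to 17844862), the other HEAT-repeat subunit of condensin I, had the smallest change of the 3. It was at 87.4, 103.2 and 94.2 CPM in NC libraries 1 to 3 and 59.9, 59.2 and 68.1 CPM in shPRMT6 libraries 1 to 3. The highest shPRMT6 library was still below the lowest NC library, and NCAPG fell by 0.60 on the log2 scale (SE 0.0910, adjusted p = 0.00670, edgeR). Exons of LCORL on the opposite strand cover 33.1% of the NCAPG exon bases in GENCODE 29, and 29.7% of its 75-base stretches also occur in LCORL or NCAPGP2, so its counts are less certain than those of NCAPH, which shares none.

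Of the condensin II subunits, 2 of 3 fell. NCAPG2 (ENSG00000146918, chromosome 7, 158631311 to 158704829), a HEAT-repeat subunit, was at 217.6, 220.3 and 209.8 CPM in NC libraries 1 to 3 and 136.4, 144.2 and 146.5 CPM in shPRMT6 libraries 1 to 3. Both groups were narrow, with a largest ratio between libraries of 1.05 in NC and 1.07 in shPRMT6. Its log2 fold change was -0.60 (SE 0.0556, adjusted p = 0.00153, edgeR), close in size to that of NCAPG.

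NCAPD3 (ENSG00000151503, chromosome 11, 134150119 to 134225454), the HEAT-repeat subunit in the place that NCAPD2 has in condensin I, was at 52.9, 62.2 and 51.5 CPM in NC libraries 1 to 3 and 39.0, 38.9 and 35.6 CPM in shPRMT6 libraries 1 to 3. NC replicate 2 was above the other NC libraries, and the groups did not overlap. NCAPD3 fell by 0.55 on the log2 scale (SE 0.0956, adjusted p = 0.0106, edgeR). Exons on the opposite strand cover 8.89% of its exon bases and 7.49% of those of NCAPD2.

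NCAPH2 (ENSG00000025770, chromosome 22, 50508216 to 50523472), the kleisin of condensin II, was the one gene of the 10 whose groups overlapped. It was at 58.7, 47.7 and 51.6 CPM in NC libraries 1 to 3 and 47.9, 46.4 and 43.3 CPM in shPRMT6 libraries 1 to 3. NC replicate 2 lay just under the highest shPRMT6 library. Its log2 fold change of -0.20 (SE 0.0956) did not pass the test (adjusted p = 0.205, edgeR), nor did it in any of the 16 other fits, where the log2 fold change ran from -0.27 to -0.04 (adjusted p from 0.105 to 0.684). Without NC replicate 2, a library left out after its values were seen, the groups did not overlap in 10 of 10 genes, as in 25.7% of all genes tested.

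**Figure D2:**
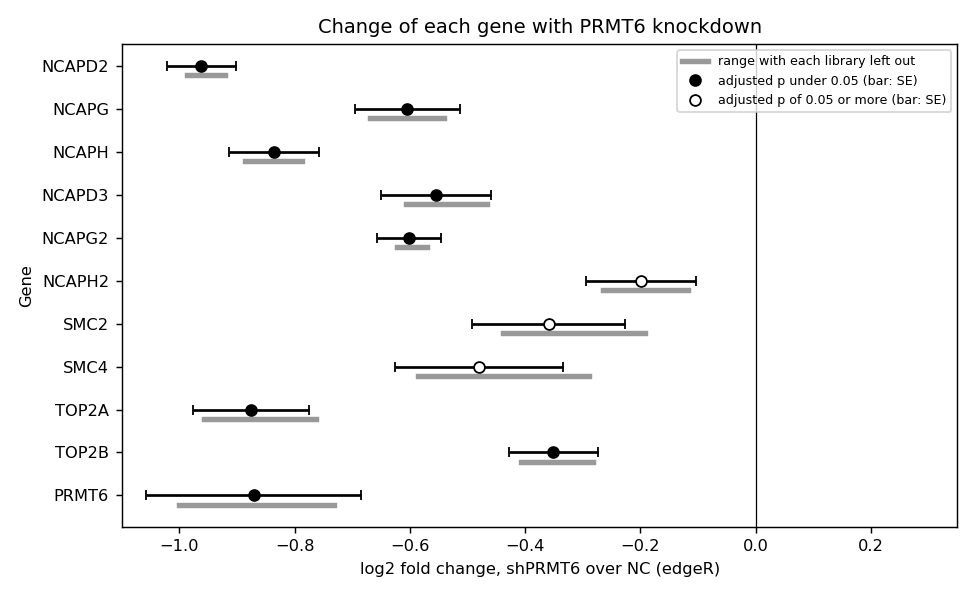
Log2 fold change of each gene (horizontal axis, shPRMT6 over NC, edgeR) with its SE, and below it in grey the range over the fits that leave out 1 library. Filled points passed an adjusted p of 0.05; the values run from -0.96 for NCAPD2 to -0.20 for NCAPH2, and PRMT6 is at -0.87.

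The shared ATPase subunits had lower mean RNA in shPRMT6 but did not pass the test. SMC2 (ENSG00000136824, chromosome 9, 104094260 to 104141417) was at 101.9, 138.8 and 101.1 CPM in NC libraries 1 to 3 and 84.3, 89.6 and 92.8 CPM in shPRMT6 libraries 1 to 3 (log2 fold change -0.36, SE 0.133, adjusted p = 0.115, edgeR). SMC4 (ENSG00000113810, chromosome 3, 160399274 to 160434962) was at 177.8, 260.7 and 188.1 CPM in NC libraries 1 to 3 and 144.0, 151.3 and 154.1 CPM in shPRMT6 libraries 1 to 3 (log2 fold change -0.48, SE 0.146, adjusted p = 0.0672, edgeR). For both genes the groups did not overlap, the shPRMT6 libraries were close together, and NC replicate 2 stood far above the other NC libraries. The largest ratio between NC libraries was 1.37 for SMC2 and 1.47 for SMC4. Without NC replicate 2 the log2 fold change was -0.19 for SMC2 (adjusted p = 0.0999, edgeR) and -0.29 for SMC4, which then passed (adjusted p = 0.0279, edgeR). SMC4 also passed without NC replicate 1 (-0.59), with DESeq2 (-0.47) and with trends on GC content and length removed (-0.55, adjusted p = 0.00808), and SMC2 passed with those trends removed (-0.44, adjusted p = 0.0117). Opposite-strand exons, of TRIM59 and IFT80, cover 25.6% of the SMC4 exon bases, and none cover those of SMC2.

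NC replicate 2 was also the deepest library, with 75887696 counts, and the highest NC library for 8 of the 10 genes. Over 10038 genes whose log2 CPM averaged 3 or more, its log2 CPM minus the mean of the other NC libraries had a median of 0.15 in the 20% of genes lowest in GC and -0.12 in the 20% highest in GC. SMC4, SMC2, NCAPG, TOP2A and TOP2B have 37.3%, 37.6%, 39.0%, 39.1% and 39.7% GC in their longest transcripts, all within that lowest range (31.3% to 40.6%), and NC replicate 2 was their highest NC library. It was also highest for NCAPD2 (52.5% GC), NCAPD3 (48.6%) and NCAPG2 (41.4%), which lie outside that range, by 0.17 above the NC mean on the log2 scale for NCAPD3 and by 0.03 for the other two. NCAPH2, at 62.2% GC, lies in the highest range (57.1% to 73.8%), and NC replicate 2 was its lowest NC library. With trends on GC content and length removed from the edgeR fit, 9 of the 10 genes fell.

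**Figure D3:**
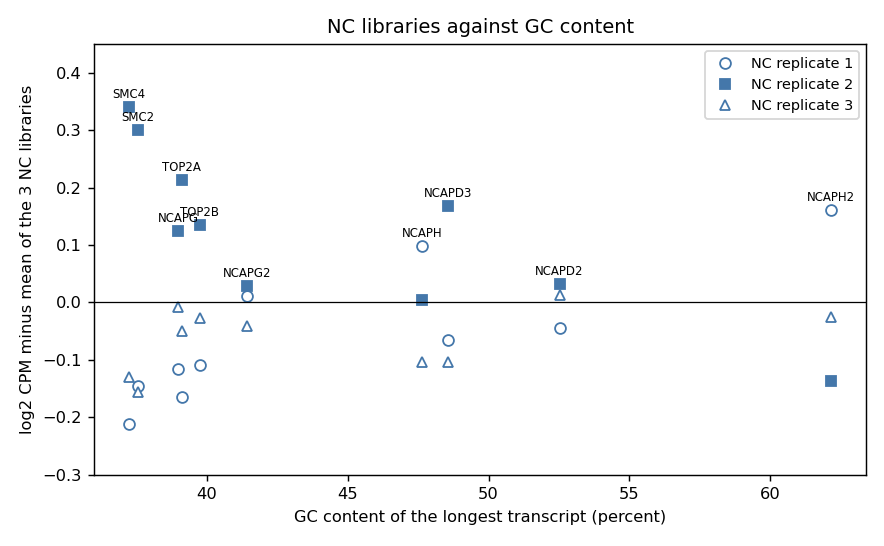
Log2 CPM of each gene in each NC library minus the mean of the 3 NC libraries (vertical axis) against the GC content of its longest transcript (horizontal axis). NC replicate 2 (filled squares) is highest for SMC4 and SMC2, the genes lowest in GC, and below the other NC libraries for NCAPH2, the gene highest in GC.

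Both topoisomerase II genes fell. TOP2A (ENSG00000131747, chromosome 17, 40388516 to 40417950), the form of dividing cells and a target of etoposide and doxorubicin, was at 318.5, 413.7 and 345.0 CPM in NC libraries 1 to 3 and 191.2, 194.7 and 201.0 CPM in shPRMT6 libraries 1 to 3. The lowest NC library was well above the highest shPRMT6 library. TOP2A fell by 45.5%, a log2 fold change of -0.88 (SE 0.101, adjusted p = 0.00269, edgeR), and by 0.76 on the log2 scale without NC replicate 2.

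TOP2B (ENSG00000077097, chromosome 3, 25597905 to 25664907), the form made in dividing and resting cells, was at 140.8, 166.6 and 149.0 CPM in NC libraries 1 to 3 and 115.7, 118.4 and 123.6 CPM in shPRMT6 libraries 1 to 3. The groups did not overlap, but they lay closer than those of TOP2A. TOP2B fell by 0.35 on the log2 scale (SE 0.0772, adjusted p = 0.0242, edgeR). This call was lost without NC replicate 3 (-0.37), shPRMT6 replicate 1 (-0.33), shPRMT6 replicate 2 (-0.35) or shPRMT6 replicate 3 (-0.38), with edgeR adjusted p from 0.0627 to 0.0903, and by limma on log2(FPKM + 1) over all genes (adjusted p = 0.0528), and TOP2B passed in 10 of 16 other fits. NCAPD2, NCAPG, NCAPH, NCAPD3, NCAPG2 and TOP2A passed in all 16 other fits.

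Levels were compared between genes on the deposited FPKM scale (fragments scaled to the length of the transcript and to library size). In NC the FPKM ran from 47.4 ± 6.61 for TOP2A (SD, n = 3) through 30.1 ± 1.06 for NCAPD2, 25.6 ± 0.496 for NCAPG2, 21.5 ± 4.67 for SMC4, 21.2 ± 1.91 for TOP2B, 16.5 ± 1.45 for NCAPG, 14.8 ± 2.80 for SMC2, 9.93 ± 0.983 for NCAPH2 and 7.38 ± 0.442 for NCAPH to 4.26 ± 0.444 for NCAPD3. The ranges of neighbouring genes overlapped for NCAPG2 and SMC4, for SMC4 and TOP2B, and for NCAPG and SMC2, so the order within those pairs is not set by these libraries. In shPRMT6, TOP2A stayed highest at 26.0 ± 0.696 FPKM and NCAPD3 lowest at 2.91 ± 0.144 FPKM. NCAPD2, the 2nd in NC, was at 15.5 ± 0.729 FPKM, below NCAPG2 (17.0 ± 0.643 FPKM) and TOP2B (16.7 ± 0.592 FPKM) in all 3 libraries. Its place against SMC4 (15.5 ± 0.556 FPKM) is not set, since their ranges overlapped and NCAPD2 was the higher in 2 of 3 libraries. The ranges of NCAPG2 and TOP2B and of SMC2 and NCAPG also overlapped. In those pairs NCAPG2 and SMC2 were the higher in all 3 libraries. The places of NCAPH and NCAPH2 depend on the length used. Lengths backed out from FPKM, if it was scaled to summed counts, had a median of 1.19 times the merged GENCODE 29 exons over tested genes. The factor was 2.37 for NCAPH (7760 against 3278 bases), 1.67 for NCAPH2 and 1.43 for NCAPD3. Per kilobase of those exons NCAPH was at 17.5 ± 1.22 CPM and NCAPH2 at 16.7 ± 1.76 CPM in NC, with overlapping ranges. On that scale NCAPH2 ranked 6 in shPRMT6, its range overlapping that of SMC2, against 8 in FPKM. NCAPD3 stayed lowest.

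The balance of condensin I and II RNA was described for each library as the mean log2 FPKM of the condensin I-only subunits minus that of the condensin II-only subunits, with no test. It was 0.53, 0.62 and 0.61 in NC libraries 1 to 3 and 0.20, 0.22 and 0.29 in shPRMT6 libraries 1 to 3. All shPRMT6 libraries were lower, with means of 0.59 ± 0.05 in NC and 0.24 ± 0.04 in shPRMT6 (SD, n = 3). By subunit pairs, the log2 ratio of the kleisins NCAPH and NCAPH2 went from -0.43 ± 0.12 to -1.07 ± 0.07, and that of NCAPD2 and NCAPD3 went from 2.83 ± 0.13 to 2.41 ± 0.02. Per kilobase of GENCODE 29 exons the kleisin ratio was 0.07 ± 0.12 in NC and -0.56 ± 0.07 in shPRMT6, so the sign in NC turned with the length used, and the difference of -0.64 did not. The ratio of NCAPG and NCAPG2 in FPKM was -0.64 ± 0.12 in NC and -0.64 ± 0.09 in shPRMT6, with overlapping groups. For the other pairs the groups did not overlap.

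The FPKM of TOP2A was 2.15, 2.36 and 2.20 times that of TOP2B in NC libraries 1 to 3 and 1.57, 1.56 and 1.54 times in shPRMT6 libraries 1 to 3. The groups did not overlap, and the shPRMT6 libraries were nearly equal. TOP2A RNA remained above TOP2B RNA in all 6 libraries.

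**Figure D4:**
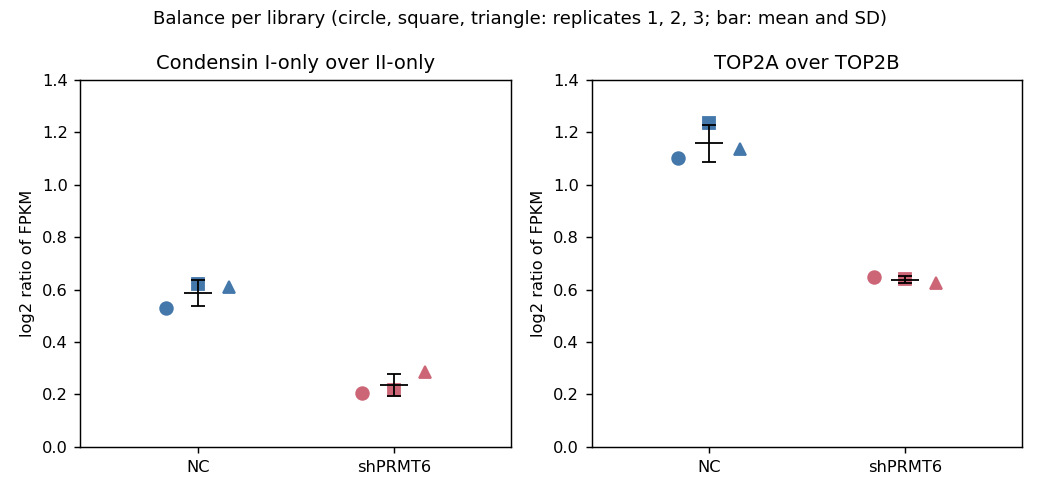
Log2 ratio of FPKM (vertical axis) of condensin I-only over condensin II-only subunits (left) and of TOP2A over TOP2B (right) in each library (points), with mean and SD (n = 3). Both ratios are lower in all shPRMT6 libraries than in any NC library, at means of 0.24 against 0.59 and of 0.64 against 1.16.

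Proteins that act on condensin and the chromosome axis were followed as a list of 15 genes. Of these, 7 fell, none rose and 8 did not pass (edgeR), with a median log2 fold change of -0.36, where 9.06% of all genes tested fell. CDK1, the kinase that phosphorylates condensins at mitotic entry, went from 103.6 ± 3.16 to 58.9 ± 1.56 CPM (SD, n = 3; log2 fold change -0.82, SE 0.0584). Its cyclins CCNB2 (-1.20) and CCNB1 (-0.78) fell with it, as did the kinases PLK1 (-0.89) and AURKB (-0.82), the kinesin KIF4A (-0.53), which binds condensin I, and PPP2CA (-0.21), a catalytic subunit of protein phosphatase 2A. The CCNB1 call was lost in 4 of the 6 fits without 1 library, and that of PPP2CA in all 6.

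Cohesin, the SMC complex that holds sister chromatids together, was followed with its regulators as a list of 17 genes. In this list 7 fell, none rose and 10 did not pass (edgeR), with a median of -0.29, where 9.06% of all genes tested fell. Among the subunits of cohesin, RAD21 and STAG1 fell, and its SMC ATPases did not pass. RAD21, its kleisin, went from 332.7 ± 21.4 to 230.4 ± 7.26 CPM (SD, n = 3; log2 fold change -0.53). The others that fell were ESPL1 (-0.58), the separase that cleaves RAD21, its inhibitor PTTG1 (-0.60), the acetyltransferase ESCO2 (-0.77), CDCA5 (-0.64) and SGO1 (-0.75), which protect cohesion, and the subunit STAG1 (-0.29). The call of PTTG1 was lost in 3 of the 6 fits without 1 library and that of STAG1 in 5.

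In the SMC5/6 complex, which acts in DNA repair, 1 of 9 genes rose and none fell: NSMCE2, its SUMO ligase, went from 16.02 ± 1.55 to 25.0 ± 0.241 CPM (SD, n = 3; log2 fold change 0.64, adjusted p = 0.00691, edgeR). Of 6 measured genes of other topoisomerases 1 fell, RMI2 (-0.45), a partner of topoisomerase IIIα, with a median of 0.07. Of 10 genes listed as processing and repair partners of topoisomerase II 1 fell, NBN (-0.81), a subunit of the MRE11 nuclease complex, also with a median of 0.07. Among 4 measured genes of other SMC proteins, LRIF1, a partner of SMCHD1, rose (0.94) and none fell. These shares stand beside the 9.06% of all genes tested that fell, the 1721 of 18106 that rose and the 18.6% that passed in either direction.

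Of 51 G2/M genes, with the genes described here left out, 39 fell, none rose and 12 did not pass (edgeR; median log2 fold change -0.76), where 9.06% of all genes tested fell. NUSAP1 (-1.01), a spindle protein, and TPX2 (-0.79), which activates Aurora A, had the smallest p. Of 43 S phase genes, 29 fell, none rose and 14 did not pass (median -0.54), with WDR76 (-0.75) and POLA1 (-0.94), the catalytic subunit of DNA polymerase α, first by p. Several regulators of condensin, CDK1, CCNB2 and AURKB among them, are also in the G2/M list. NCAPD2 fell by more than 39 of the 51 G2/M genes, and TOP2B by more than 8 of them. By flow cytometry, the paper reports G0/G1 arrest of glioblastoma cells, U87 included, after PRMT6 silencing. The part of the share of cycling cells in the changes of condensin and topoisomerase II RNA was not tested.

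The genes most like each of the 10 were taken by the root mean square difference of log2 CPM over the 6 libraries, centred for each gene, among 10051 genes. This measure uses the same libraries as the comparison, so the group difference enters it. NCAPD2 was nearest to ABCC1 (0.0336), a drug transporter, SPIN4 and NUCB1, and NCAPH to UBE2T (0.0436), MMD and KIFC1. NCAPG was nearest to DNAJC10 (0.0332) and GABBR1, NCAPD3 to SMAP1 (0.0459), RCAN1 and USP1, and NCAPG2 to DPYSL2 (0.0328), GAA and TNFRSF10B. NCAPH2, which did not pass the test, was nearest to TMEM203 (0.0124) and to the ribosomal protein genes RPL9 and RPL37A.

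SMC2 and SMC4 had TAPT1 in common among their 3 nearest genes (0.0331 and 0.0478). The others were FBXO5 and DZIP1 for SMC2, and THOC2 (0.0395) and SMCHD1 for SMC4. TOP2A was nearest to PAPPA (0.0307), KIF15 and CDC5L, and TOP2B to MARF1 (0.0204), UBE3C and OSBPL3. None of the 10 genes was among the 3 nearest of another.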

How the data were processed

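RNA of 3 NC and 3 shPRMT6 libraries of U87 cells was compared, grouped by the labels. The authors deposited raw counts per gene and FPKM values (0.0001 stands for a gene with no counts). The submitters' processing notes name HISAT2, HTSeq 0.13.5 and GRCh38, and the use of strand is not given in the sources used here. Within each group, pairs of libraries differed by more than counting error (48.2 to 78.4 in chi-square over degrees of freedom), and the lowest count of the 10 genes was 2024.

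The main test was the quasi-likelihood F test of edgeR 4.0.16 in R 4.3.3 on the counts, after its low-count filter and TMM factors, with no replicate block and with Benjamini-Hochberg adjustment over 18106 genes. Errors are SD over 3 libraries, or SE of log2 fold changes. For edgeR this SE was derived as the absolute log2 fold change divided by the square root of the F statistic. P-values set the difference between groups against the spread between these libraries, moderated over all genes tested. Whether the replicates were separate infections is not given, and effects of the shRNA other than loss of PRMT6 were not tested. Alternatives were DESeq2 1.42.0, limma 3.58.1 on log2 FPKM (pseudocount 1 or 0.1 over genes averaging 1 FPKM or more, and pseudocount 1 over all genes), library size alone or upper quartile factors as scaling, a filter of 10 counts in every library or of 1 in any, a replicate block, an adjusted p under 0.01, removal of GC content and length trends, and each library left out. Exon lengths and overlaps came from GENCODE 29, and promoters from RefSeq on GRCh38.p14.

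The members and lists were chosen with earlier results of these data known. Named genes were the 10 genes, PRMT6, list genes past an adjusted p of 0.05, the first 2 by p in each direction for G2/M and S phase, and the 3 nearest genes of each of the 10. The value of 1 gene under this rule is not reported here.

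The programs were tested on simulated counts after the real counts had been fitted. The first 2 versions of that simulation missed the recovery asked of edgeR, so the simulated dispersion, the expression level of the changed genes and the recovery asked for were revised until it passed. In all 3 versions DESeq2 made false calls well beyond its threshold. By a smaller margin, so did edgeR in the first version and limma in the last, and the last version asked the share of false calls of edgeR only. A later split of the last version, with a condition on the upper levels added, placed the false calls of DESeq2 mostly among genes with an average log2 CPM of 5 or less, below all 10 genes. DESeq2 totals over all genes therefore carry that limit.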

Additional observations from a re-analysis of the deposited data

How the results depend on the processing

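NCAPD2, NCAPG, NCAPH, NCAPD3, NCAPG2 and TOP2A kept their direction and their call in all 16 other fits at an adjusted p of 0.05. The 10 genes had 5 past an adjusted p of 0.01, and 6 to 9 past 0.05 in the other fits. No named gene changed direction in any fit. Genes past the threshold numbered 3362, against 1320 at an adjusted p under 0.01 and 1755 to 3183 with 1 library left out, the lower values without NC replicate 3 (1939) or shPRMT6 replicate 1 (1871), 2 (1755) or 3 (1858). With the replicate block they numbered 1858, and 6 of the 10 genes passed, since TOP2B did not (adjusted p = 0.0588, edgeR). The block also ended the calls of PRMT6 (0.0803), SGO1 (0.0552), STAG1 (0.0707) and PPP2CA (0.0952), and those of MARF1, UBE3C and OSBPL3 among the nearest genes, and no other call of a named gene. Libraries with the same number did not deviate together (correlations of -0.03, -0.02 and -0.03), so the numbers were not taken as pairs.

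In the small lists, DESeq2 and the removal of GC content and length trends gave 2 genes in place of 1 for SMC5/6, for other SMC proteins and for other topoisomerases, and 4 and 3 in place of 1 for topoisomerase II partners. A minimum of 10 counts in every library gave 2 for other topoisomerases and 2 for topoisomerase II partners, and limma on log2(FPKM + 1) or log2(FPKM + 0.1) gave 2 for other topoisomerases. At an adjusted p under 0.01 cohesin and its regulators had 4 genes in place of 7. With 1 library left out, SMC5/6 had 1 to 2 genes, other topoisomerases 1 to 2 and topoisomerase II partners 1 to 3. The balance of condensin I and II RNA in NC was 0.65 per kilobase of GENCODE 29 exons, against 0.59 in FPKM, and its difference between groups was -0.35 on both scales. The cause of these changes was not tested. Counting error was 2.22% at the lowest count of the 10 genes, so the spread between 3 libraries sets their precision.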
